A study of Mus musculus with 8 samples.

Results

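The 10 genes described here encode the core of Polycomb repressive complex 2 (PRC2; Ezh2, Ezh1, Eed and Suz12), the DNA methylation machinery (Dnmt1, Dnmt3a, Dnmt3b and Uhrf1) and 2 enzymes that oxidize methylated cytosine (Tet1 and Tet2). They were chosen by name, from what the proteins do, with earlier results of these data known. The bulk count files held 38293 gene identifiers and the single-cell files 15150 gene names, and all 10 were found in both. All lines were mouse mammary tumor organoids from MMTV-PyMT; MMTV-Cre; Ecadherin-mCFP animals, in which the MMTV promoter drives the polyoma middle T oncogene and Cre in mammary epithelium. Control and SOX4KO lines, both made with CRISPR/Cas9, were dissociated to single cells and grown for 4 days in DMEM/F12 with B27 and FGF2, and the labels give no age. Bulk RNA-sequencing covered 2 control lines (WT1 and WT3) and 3 SOX4KO lines (H7, M4 and H4), and single-cell RNA-sequencing covered 1 control line (GR17) and 2 SOX4KO lines (GR18 and GR19). The Ecadherin-mCFP allele is a fluorescent reporter, and the study's methods describe bi-allelic indels in the knockout lines it went on with. Each library is 1 line, so the spread within a group is that between lines, and the labels do not say which bulk line, if any, is the same as a single-cell line.

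PRC2 methylates lysine 27 of histone H3 and thereby helps to keep developmental genes silent. EZH2 and EZH1 are its alternative catalytic subunits, EZH2 being the form typical of dividing cells and EZH1 that of resting and differentiated cells, while EED binds the finished mark and SUZ12 holds the complex together. DNMT1 copies DNA methylation onto the new strand after replication, UHRF1 finds the hemimethylated sites for it, DNMT3A and DNMT3B place methylation on unmethylated DNA, and TET1 and TET2 start its removal. Because several of these genes are known to be transcribed with the cell cycle, they were set against Top2a, which encodes a DNA topoisomerase made mainly in S, G2 and M phase.

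Promoter stretches are shown because of the members that followed Top2a most closely from cell to cell in the main setting (Dnmt1, Uhrf1, Ezh2 and Suz12). The same members were those with a word of the E2F type near an annotated start, and also the most abundant members in the single-cell libraries. The ranking came from these same data, and a link between the words and the correlation was not tested. When fewer counts were kept per cell, Eed, which had no E2F word, came above Suz12 and Ezh2. RefSeq starts on GRCm38.p6 gave 15 promoters for the 10 members, each reaching from 250 bases before the start to 50 after it. Searched on both strands were the E2F words TTTCCCGC, TTTCGCGC, TTTGCCGC and TTTGGCGC, the cell cycle homology region TTTGAA (CHR), the CCAAT box, and the SOX words AACAAT and AACAAAG. All matches to these words are in capitals below, each sequence reads 5′ to 3′ on the strand of its gene, and position -1 is the last base before the start.
Ezh2, chr6:47595011-47595140, minus strand, from -110 to 20: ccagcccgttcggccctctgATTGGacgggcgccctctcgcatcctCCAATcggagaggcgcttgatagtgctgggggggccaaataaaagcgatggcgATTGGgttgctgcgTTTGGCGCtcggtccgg
Suz12, chr11:79992876-79992975, plus strand, from -230 to -131: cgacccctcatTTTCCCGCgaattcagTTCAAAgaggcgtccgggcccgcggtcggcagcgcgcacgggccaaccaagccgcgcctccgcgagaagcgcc
Dnmt1, chr9:20952764-20952863, minus strand, from -240 to -141: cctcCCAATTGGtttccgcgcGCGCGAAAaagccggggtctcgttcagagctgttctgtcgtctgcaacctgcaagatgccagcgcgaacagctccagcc
Uhrf1, chr17:56304113-56304212, plus strand, from -200 to -101: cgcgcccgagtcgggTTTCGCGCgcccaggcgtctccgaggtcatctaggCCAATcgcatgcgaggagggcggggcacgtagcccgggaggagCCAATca
Ezh1, chr11:101226464-101226563, minus strand, from -100 to -1: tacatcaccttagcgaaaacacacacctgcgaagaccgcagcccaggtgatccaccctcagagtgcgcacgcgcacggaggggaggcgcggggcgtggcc
Top2a, chr11:99024190-99024299, minus strand, from -110 to -1: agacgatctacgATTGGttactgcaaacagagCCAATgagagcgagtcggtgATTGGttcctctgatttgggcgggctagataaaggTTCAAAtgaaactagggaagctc

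The Ezh2 stretch has 3 CCAAT boxes before the start and an E2F word from 4 to 11 after it. Suz12 has an E2F word from -219 to -212 and a CHR word close by, the printed Dnmt1 start has 2 overlapping CCAAT boxes and an E2F word from -219 to -212, and the printed Uhrf1 start has an E2F word from -185 to -178. Dnmt1 has 3 annotated starts and Uhrf1 has 2, and an E2F word was found at 1 start of each. The Ezh1 promoter, shown for contrast as the other catalytic subunit, held none of the words, and neither did any promoter of Dnmt3a, Tet1 or Tet2. E2F words were in 4 of the 15 member promoters and in 2.26% of the 32851 mouse promoters of the same length. CHR words were in 4 member promoters against 17.9% of all, CCAAT boxes in 7 against 37.4%, and SOX words in 1 (Ezh2) against 15.7%. The Top2a stretch has CCAAT and CHR words and no E2F word in the same window. A match gives the letters at that place and is not a measurement of binding.

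Bulk libraries held 3050323 to 4678497 reads on genes, and 11682 genes passed the filter on low counts, all 10 members among them. Levels are given as CPM, read counts scaled to the size of the library, here with TMM factors. SOX4 itself, an HMG-box transcription factor, was measured at 294 and 373 CPM in the control lines and at 198, 178 and 298 CPM in H7, M4 and H4, so the level in H4 lay between those of the controls. The log2 difference of Sox4 was -0.57 ± 0.25 (SE; edgeR adjusted p = 0.277), and a small insertion or deletion in a coding sequence need not lower its transcript. For the knockout lines it first selected, the paper reports by western blot that SOX4 protein was absent. The labels do not say which of H7, M4 and H4 those lines are. All 10 epithelial markers were detected in every bulk library but M4, which had 9, and their summed level was 2349 to 3257 CPM. Summed markers of fibroblasts were 57.1 to 102 CPM in bulk, those of endothelial cells 1.03 to 2.15 CPM and those of immune cells 1.79 to 14.3 CPM, the highest immune value being that of H7. Their part in the members' levels was not tested. The single-cell libraries had 384 wells each, of which 369 (GR17), 369 (GR18) and 362 (GR19) passed a minimum of 1000 unique molecules (UMIs), with medians of 19845, 20525 and 21877 UMIs per cell. The same 384 well barcodes were used in each plate, and summed epithelial markers were 3681 to 5458 CPM of UMIs.

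Ezh2 was lower in all 3 SOX4KO lines than in both control lines and Ezh1 was higher in all 3, whereas Eed and Suz12 overlapped between the genotypes. In the controls Ezh2 was at 60.2 CPM in WT1 and 79.6 in WT3, and SOX4KO lines H7, M4 and H4 held 48.4, 57.1 and 46.3 CPM. Group means came to 69.9 ± 13.8 CPM (SD, n = 2) and 50.6 ± 5.70 CPM (SD, n = 3), a log2 difference of -0.47 ± 0.20 (SE), which missed the threshold of 0.1 after adjustment over all genes (edgeR adjusted p = 0.254). M4 had the highest Ezh2 of the knockouts and came close to WT1. Ezh1 was at 40.0 CPM in WT1 and 38.1 in WT3, and at 53.4, 50.6 and 58.3 in H7, M4 and H4. Its log2 difference had the opposite sign and the same size, 0.47 ± 0.17 (edgeR adjusted p = 0.20), and the gap between the genotypes was wider than the spread within either.

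Eed, the subunit that reads the mark, was at 27.9 and 36.3 CPM in the controls and at 36.4, 36.6 and 27.7 CPM in the knockouts H7, M4 and H4. The 5 lines thus fell into a high and a low level that did not follow genotype (log2 difference 0.06 ± 0.22, edgeR adjusted p = 0.928). Suz12, the scaffold, was the most abundant core subunit, at 119.8 and 98.9 CPM in the controls and 114, 80.1 and 98.7 CPM in H7, M4 and H4. Its lowest value was that of M4 and its log2 difference was -0.16 ± 0.20 (edgeR adjusted p = 0.744).

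Dnmt1, Uhrf1 and Dnmt3b were lower in every SOX4KO line than in either control line, while Dnmt3a overlapped. For Dnmt1, the maintenance methyltransferase, the controls lay at 99.7 and 103 CPM and the SOX4KO lines at 77.3, 73.2 and 82.2 CPM. The means of 101 ± 2.42 CPM (SD, n = 2) and 77.6 ± 4.47 CPM (SD, n = 3) differed by more than the spread within either group, with a log2 difference of -0.39 ± 0.16 (edgeR adjusted p = 0.251). Its partner Uhrf1 was at 28.4 and 26.6 CPM in the controls and at 14.1, 24.8 and 11.9 CPM in H7, M4 and H4. H7 and H4 were far below the controls, whereas M4 was just under them, and the log2 difference was -0.72 ± 0.31 (edgeR adjusted p = 0.272). Without M4 it was -1.09 and passed the threshold (edgeR adjusted p = 0.0480). M4 was the smallest bulk library and had 7.66% mitochondrial reads, against 3.97 to 5.45% in the other lines, and 16.2% of its alignments were counted on genes, against 21.3 to 28.4%, and the part of this in its levels was not tested.

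Dnmt3b, a de novo methyltransferase, was the member with the fewest reads. It had 22 and 17 reads in the controls and 7 reads in each SOX4KO line, which came to 5.68 and 3.38 CPM against 1.82, 2.51 and 1.67 CPM in H7, M4 and H4. The log2 difference of -1.18 ± 0.48 (edgeR adjusted p = 0.246) was the widest among the members and had the largest standard error. The other de novo enzyme, Dnmt3a, was at 88.0 and 84.6 CPM in the controls and spread from 72.9 (M4) over 95.1 (H4) to 120.5 CPM (H7) in the knockouts. The controls lay inside that range (log2 difference 0.16 ± 0.22, edgeR adjusted p = 0.780).

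Tet1 was the single member that passed the threshold, and it fell in the SOX4KO lines. Its levels were 29.9 and 24.8 CPM in WT1 and WT3 and 16.7, 14.4 and 15.5 CPM in H7, M4 and H4, so that the knockouts lay close together and well below the controls. The means were 27.4 ± 3.62 CPM (SD, n = 2) and 15.5 ± 1.15 CPM (SD, n = 3), a log2 difference of -0.81 ± 0.21 (edgeR adjusted p = 0.0881). The call was lost when any 1 of WT1, WT3, H7, M4 or H4 was left out (edgeR adjusted p from 0.102 to 0.504) and with DESeq2 (adjusted p = 0.125). Tet2, which had the higher CPM of the pair in every bulk line, was at 55.3 and 45.5 CPM in the controls and at 59.1, 29.8 and 38.7 CPM in H7, M4 and H4. The highest and the lowest value were both knockouts (log2 difference -0.24 ± 0.28, edgeR adjusted p = 0.734).

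**Figure D1:**
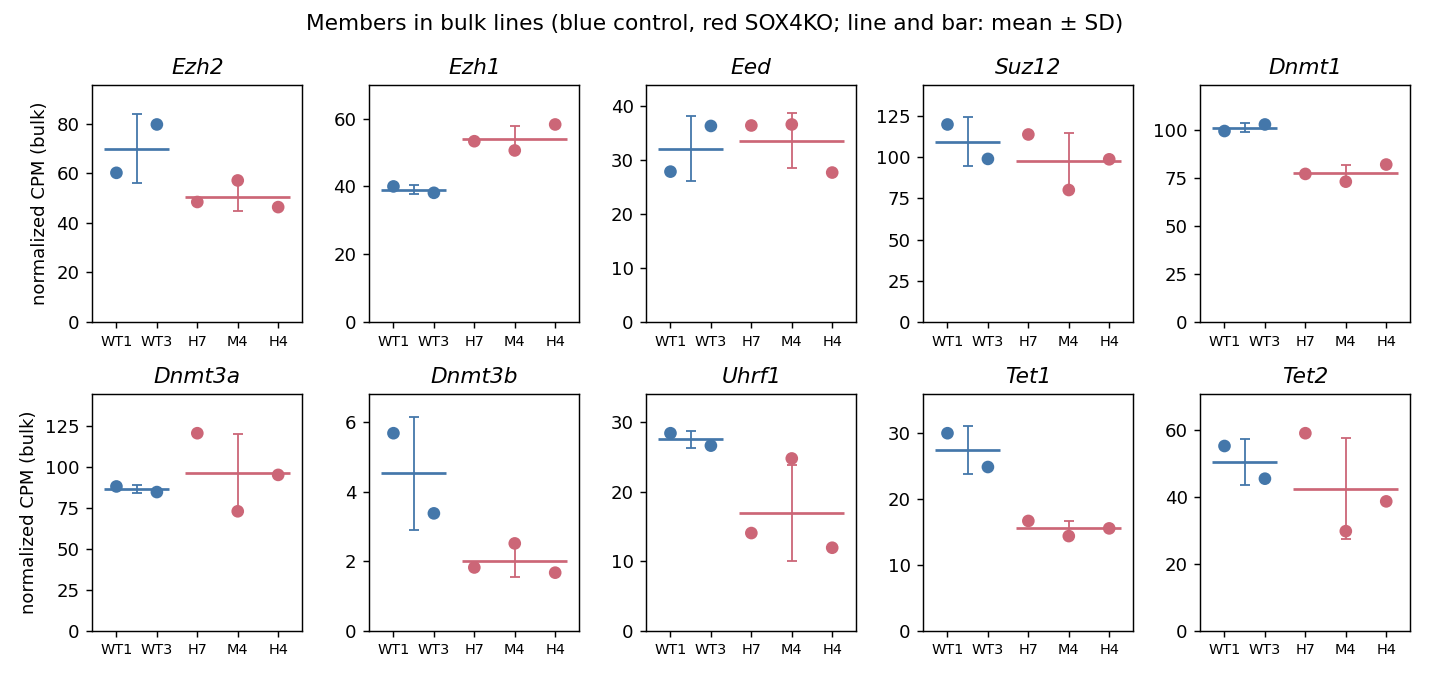
Each panel plots 1 member in the 5 bulk lines as TMM-normalized CPM on a linear axis from 0, with control lines in blue, SOX4KO lines in red, and the group mean ± SD as a line and bar (n = 2 and n = 3). Ezh2, Dnmt1, Dnmt3b, Uhrf1 and Tet1 lie lower in all 3 SOX4KO lines than in both controls, Ezh1 lies higher, and the other 4 members overlap.

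Counted over the members, 5 of 10 were below both controls in all SOX4KO lines, 1 was above and 4 overlapped, where 17.9% of all genes tested were below and 19.0% above, 36.9% together. At an unadjusted edgeR p under 0.05 there were 6 members, 5 of them lower, against 18.1% of all genes in either direction. After adjustment 1 member was called lower and 0 higher, where 2.17% of all genes were called lower and 4.1% higher. DESeq2 called 0 members. The members' median log2 difference was -0.31, beside 0.01 over all genes. Genes of the cell cycle moved in the same libraries: Top2a fell from 125 and 109 CPM in the controls to 72.9, 76.1 and 55.2 CPM (log2 difference -0.78 ± 0.19, edgeR adjusted p = 0.0718), and Mki67, a marker of dividing cells, fell by 0.85 on the log2 scale (edgeR adjusted p = 0.0822). Of 41 S phase genes tested, 9 were called lower and 0 higher with a median of -0.72, and of 54 genes of G2 and M phase 14 were called lower and 0 higher with a median of -0.73. In bulk samples fewer dividing cells and less RNA of these genes per cell cannot be told apart.

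Levels of different genes were compared as CPM per kb of exon, with lengths from GENCODE vM21 that join all annotated exons of a gene. The lengths of the transcripts present in these cells were not measured, so the order between genes depends on this choice. In the control lines Suz12 stood first at 22.1 CPM per kb, followed by Dnmt1 at 13.7, Ezh2 at 10.5, Eed at 8.39, Uhrf1 at 6.46, Ezh1 at 5.25, Dnmt3a at 5.19, Tet2 at 2.99, Tet1 at 1.77 and Dnmt3b at 0.887. Between neighbours in this order, Ezh2 and Eed overlapped from line to line, and so did Ezh1 and Dnmt3a. The means of the SOX4KO lines gave another order in the middle, with Eed at 8.77, Ezh2 at 7.58, Ezh1 at 7.27, Dnmt3a at 5.78 and Uhrf1 at 3.97 CPM per kb. The ratio of Ezh2 to Ezh1 per kb was 1.67 in WT1 and 2.33 in WT3, and 1.01, 1.26 and 0.886 in H7, M4 and H4. By these lengths the 2 catalytic subunits were at about equal levels per kb in the knockouts. The ratio in every knockout lay under that of both controls, an order that does not depend on the lengths. In single cells, where 1 UMI is counted per transcript whatever its length, the ratio of Ezh2 to Ezh1 UMIs was 5.51 in control GR17 (95% exact interval 4.46 to 6.86), against 2.12 (1.79 to 2.52) for GR18 and 3.74 (3.08 to 4.56) for GR19. Both knockout libraries were again lower than the control library, GR18 more so, and the size of the ratio is not comparable between the assays.

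**Figure D2:**
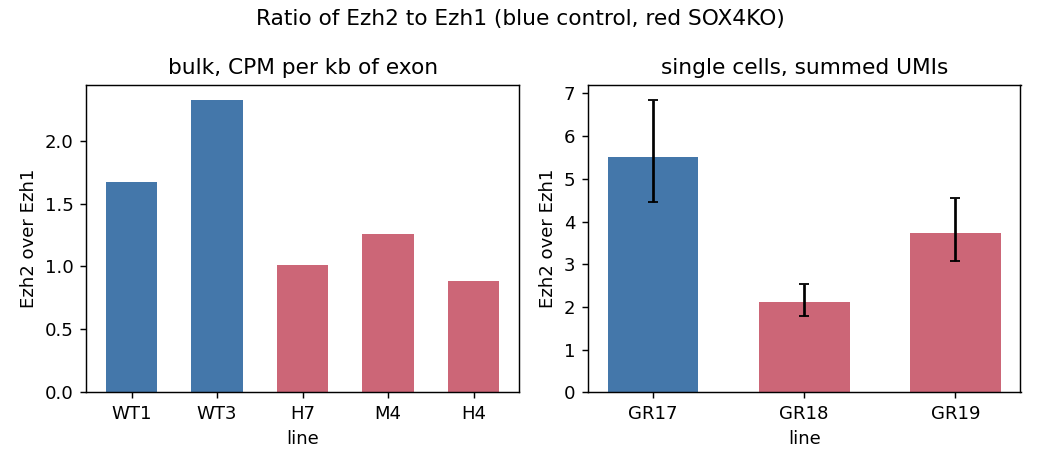
Bars give the ratio of Ezh2 to Ezh1 in each line, on the left for bulk CPM per kb of exon and on the right for summed UMIs of single cells with 95% exact intervals for counting error. Control lines are blue and SOX4KO lines red, and the ratio in each SOX4KO line is below that in every control line of the same assay.

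Other genes of both pathways were examined from lists by function. The 9 tested accessory subunits of PRC2 gave 0 calls in bulk, where 6.27% of all genes were called in either direction, and neither of the 2 tested demethylases of lysine 27 was called. Among 23 genes of Polycomb repressive complex 1, which ubiquitinates histone H2A, Cbx2 fell and Phc2 rose. Cbx2, a chromodomain subunit that binds methylated lysine 27, was at 25.0 and 22.8 CPM in the controls and at 12.2, 11.5 and 6.93 CPM in the knockouts (log2 difference -1.24 ± 0.29, edgeR adjusted p = 0.0626). Phc2, a Polyhomeotic subunit, was at 174 and 167 CPM in the controls and at 258, 294 and 243 CPM in the knockouts (log2 difference 0.64 ± 0.17, edgeR adjusted p = 0.0965). Both were separated between the genotypes, and no other gene of the list was called.

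Partners of DNA methylation gave 2 calls among 8 genes tested, both lower. For the lists of this paragraph, the shares over all genes in bulk were 2.17% lower and 4.1% higher. Hells, a chromatin remodeller needed for DNA methylation, was at 41.8 and 46.1 CPM in the controls and at 25.8, 24.4 and 18.6 CPM in the knockouts (log2 difference -0.94 ± 0.21, edgeR adjusted p = 0.0533). Cdca7, which works with it, was at 19.9 and 24.6 CPM against 12.2, 11.8 and 7.41 CPM (log2 difference -1.10 ± 0.29, edgeR adjusted p = 0.0872). Both genes are widely used as S phase genes as well. None of 8 readers of methylated DNA was called. Of 7 genes of active demethylation and deamination, Apobec1, a cytidine deaminase known from RNA editing, rose from 21.2 and 17.3 CPM to 131, 67.5 and 83.6 CPM (log2 difference 2.30 ± 0.31, edgeR adjusted p = 0.0131), and the others, Tet3 included, were not called.

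Genes that these marks are known to keep silent were mostly too low to be tested. Of 20 germline genes known to be silenced by DNA methylation, 17 had 0 reads in every bulk library and 0 passed the filter. Of 39 Hox genes, classical targets of Polycomb, 16 had 0 reads in every bulk library and 13 could be tested. Hoxc13 was called higher, on 2 and 1 reads in the controls and 17, 26 and 11 reads in H7, M4 and H4 (edgeR adjusted p = 0.0547). It passed the filter on low counts only through the SOX4KO lines, and its call is not read as a result about Hox genes. Of 26 other regulators known as PRC2 targets, 8 were tested and Cdkn2b, an inhibitor of cyclin-dependent kinases, rose from 13.4 and 12.1 CPM to 42.2, 28.0 and 51.8 CPM (log2 difference 1.68 ± 0.29, edgeR adjusted p = 0.0283). No other gene of these lists was called. For comparison, the background share of higher calls in bulk was 4.1%, beside 1 of 13 Hox genes and 1 of 8 regulators. The median log2 difference was 0.26 over the tested Hox genes and 0.39 over the tested regulators, beside 0.01 over all genes. Both medians rest on the part of each list that passed the filter. Whether either list moved as a whole was not tested.

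In single cells the genotypes were not tested against each other, since 1 control library gives no spread of its own, and values are CPM of UMIs summed over all cells with 95% exact Poisson intervals, which cover counting error only. Ezh2 was at 74.3 CPM (68.3 to 80.6) for the control GR17, and 53.3 (48.4 to 58.6) and 59.9 CPM (54.8 to 65.4) for GR18 and GR19. Dnmt1 was at 139 CPM (131 to 148) for the control, and 94.5 (87.9 to 101) and 109 CPM (102 to 116) for the knockouts in the same order. Uhrf1 was at 92.2 CPM (85.5 to 99.2), against 71.3 (65.6 to 77.4) and 69.8 CPM (64.2 to 75.7). For each of these the 2 SOX4KO libraries were lower and their intervals stayed clear of the control's. Dnmt3b showed the same order on 60, 23 and 32 UMIs, or 7.78, 2.87 and 3.86 CPM.

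The other members were arranged differently. Suz12 was at 162, 164 and 179 CPM and Eed at 40.3, 41.2 and 42.4 CPM in GR17, GR18 and GR19, with overlapping intervals. Ezh1 was at 13.5 CPM in GR17, 25.1 in GR18 and 16.0 in GR19, so that only GR18 stood clear of the control. Tet1, called in bulk, was at 10.6 CPM in GR17, 10.6 in GR18 and 7.83 in GR19, with overlapping intervals. Tet2 was at 7.78, 9.99 and 14.2 CPM, GR19 standing clear of the control, and Dnmt3a at 24.8, 26.6 and 24.5 CPM. In all, 5 members were lower in both SOX4KO libraries, 4 were higher in both and 1 was mixed, where Tet1 counts as lower although its log2 difference in GR18 was -0.00216. Of the 6 members with at least 20 CPM on average, 3 (Ezh2, Dnmt1 and Uhrf1) were lower in both, each with intervals clear of the control, and among all genes at that level 42.5% were lower in both SOX4KO libraries and 18.8% were lower with intervals that did not overlap. Genotype, line and library cannot be told apart in this comparison. Top2a was at 345 CPM in GR17 and at 215 and 217 CPM in the SOX4KO libraries, whereas Mki67, at 232, 222 and 267 CPM, was not lower in both.

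To set the members against Top2a, each cell with at least 10000 UMIs was thinned to 10000 and put in a class with 0, 1 to 2, or at least 3 Top2a UMIs. This left 334 cells in GR17, 330 in GR18 and 342 in GR19, with 35, 39 and 20 shallower cells left out. Top2a-high cells were 44.3% of the cells in GR17 (95% exact binomial interval 38.9 to 49.8), 23.0% (18.6 to 28.0) of those in GR18 and 24.3% (19.8 to 29.2) of those in GR19, and 51.8%, 29.5% and 35.1% when classes were made without thinning. The classes are ranges and not cell types: 23, 18 and 15 cells of GR17, GR18 and GR19 had 3 Top2a UMIs, and 33, 24 and 24 cells had 2. Top2a-high cells also held more UMIs before thinning, with medians of 23894, 26614 and 28777 against 18970, 19667 and 20259 in Top2a-zero cells. UMIs were summed by library and class, and Top2a-high was compared with Top2a-zero over the 3 libraries.

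In the fit over the 3 libraries Dnmt1 was 2.29-fold and Uhrf1 2.46-fold higher in Top2a-high cells, Ezh2 was 1.83-fold higher, Suz12 and Eed were higher by less, and Ezh1 was lower. The size varied with the library, since in GR17 the ratio was 1.96 for Dnmt1 and 1.58 for Uhrf1. Dnmt1 was at 90.1 CPM in Top2a-zero and 176 CPM in Top2a-high cells of GR17, and at 57.8 and 159 CPM for GR18 and 74.4 and 168 CPM for GR19. The log2 difference was 1.20 ± 0.10 (edgeR adjusted p = 2.79e-07), with the low class in between in each library. Uhrf1 went from 69.5 to 109.9 CPM (GR17), 35.8 to 120.1 (GR18) and 39.0 to 111 (GR19) (log2 difference 1.30 ± 0.15, edgeR adjusted p = 1.24e-05). Without thinning the log2 difference of Uhrf1 was 1.96. The high classes of the 3 libraries were close together for both genes and the zero classes were further apart, most of all for Uhrf1.

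Of the PRC2 subunits, Ezh2 went from 56.6 to 88.5 CPM (GR17), 36.4 to 81.8 (GR18) and 45.2 to 80.2 (GR19) (log2 difference 0.88 ± 0.12, edgeR adjusted p = 6.45e-05). Suz12 went from 127 to 186, from 138 to 201 and from 158 to 212 CPM in the same order (0.51 ± 0.08, edgeR adjusted p = 0.000204). Eed was the weakest of the 3, with ratios of 1.20 to 1.41 over the libraries (0.41 ± 0.13, edgeR adjusted p = 0.0316). Its call was lost without GR18 (edgeR adjusted p = 0.156), without GR19 (0.262), with classes by Mki67 (0.242) and with DESeq2 (0.481). Ezh1 ran the other way, from 14.9 down to 10.5 CPM in GR17, from 30.2 to 18.2 in GR18 and from 21.2 to 10.3 in GR19 (-0.76 ± 0.19, edgeR adjusted p = 0.0100), lower in 3 of 3 libraries. That call was lost without GR19 (edgeR adjusted p = 0.124) and with DESeq2 (0.289).

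The remaining 4 members were not called. Dnmt3a had a log2 difference of 0.00 ± 0.17 (edgeR adjusted p = 0.995) and ratios of 0.782 to 1.21, and with classes by Mki67 it was called lower (-0.50, edgeR adjusted p = 0.0402). Dnmt3b had 20 or fewer UMIs in every class, with ratios from 0.414 to 2.04. Tet1 was lower in Top2a-high cells in 3 of 3 libraries, with a log2 difference of -0.53 ± 0.24 that missed the threshold (edgeR adjusted p = 0.144), and Tet2 had a log2 difference of 0.13 ± 0.23 (edgeR adjusted p = 0.752). In total 5 members were called higher in Top2a-high cells and 1 lower, beside background shares of 13.1% higher and 11.9% lower over all genes (25.0% in either direction). For scale, Cdk1, the kinase that drives mitosis, was higher by 2.55 on the log2 scale, Pcna, the replication clamp, by 1.18 and Mki67 by 1.53. S phase genes were called higher in 39 of 41 cases, with a median log2 difference of 1.04. Sox4 itself was lower in Top2a-high cells, with a log2 difference of -0.26 ± 0.09 (edgeR adjusted p = 0.0654).

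**Figure D3:**
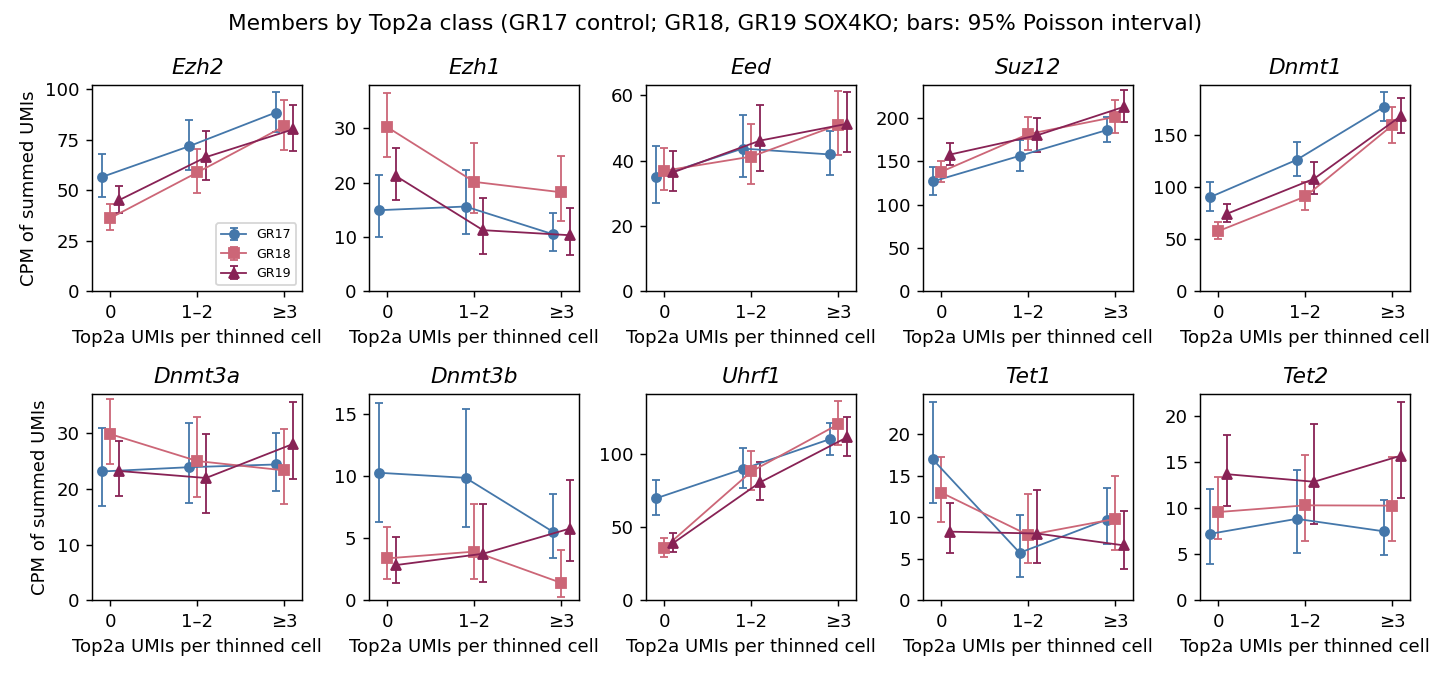
Each panel plots 1 member as CPM of summed UMIs, on a linear axis from 0, over cells with 0, 1 to 2, or at least 3 Top2a UMIs after thinning, for GR17 (control, circles), GR18 (SOX4KO, squares) and GR19 (SOX4KO, triangles) with 95% exact Poisson intervals. Dnmt1, Uhrf1, Ezh2 and Suz12 climb with Top2a in all 3 libraries, Ezh1 ends lower in Top2a-high than in Top2a-zero cells in each, and Dnmt3a has ratios of high to zero class from 0.782 to 1.21.

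Among the other genes of these pathways, 4 of 9 accessory subunits of PRC2 were called higher in Top2a-high cells and 0 lower. For this and the lists below, the shares over all genes were 13.1% higher and 11.9% lower. They were the histone-binding subunits Rbbp4 (log2 difference 0.55 ± 0.09, edgeR adjusted p = 0.000258) and Rbbp7 (0.33 ± 0.08, 0.00632) and the Polycomb-like proteins Phf19 (1.25 ± 0.33, 0.0134) and Mtf2 (0.48 ± 0.15, 0.0390). The demethylase Kdm6b was lower (-0.54 ± 0.15, edgeR adjusted p = 0.0178). Of 8 partners of DNA methylation 3 were higher, namely Uhrf2, Cdca7l and Hells, with log2 differences of 0.36, 0.69 and 0.37. Readers of methylated DNA were divided: Zbtb4 (-1.10 ± 0.17, edgeR adjusted p = 0.000169) and Zbtb38 (-0.999 ± 0.30, 0.0287) were lower, and Mbd4, a glycosylase that also binds methylated DNA, was higher (0.82 ± 0.26, 0.0399). In PRC1, 1 of 23 genes was called in each direction, Cbx6 higher and Phc3 lower. Apobec1 was the only call of 5 demethylation genes tested (log2 difference 0.30, edgeR adjusted p = 0.0858), and 0 of 9 Hox genes and 0 of 6 other PRC2 targets tested were called. The genes of these lists that are named here for this comparison were named because they were called in it.

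When cells of the same Top2a class were set side by side, Uhrf1, Dnmt1 and Ezh2 had overlapping intervals in Top2a-high cells of the 3 libraries and were lower in Top2a-zero cells of both SOX4KO libraries, not in every case beyond counting error. In Top2a-high cells Uhrf1 was at 109.9, 120.1 and 111 CPM in GR17, GR18 and GR19, Dnmt1 at 176, 159 and 168 CPM and Ezh2 at 88.5, 81.8 and 80.2 CPM, with all intervals overlapping. The ratio to GR17 in these cells was 1.09 (95% counting interval 0.930 to 1.28) and 1.01 (0.863 to 1.18) for Uhrf1, and 0.902 (0.788 to 1.03) and 0.952 (0.839 to 1.08) for Dnmt1. For Ezh2 it was 0.924 (0.764 to 1.11) and 0.906 (0.754 to 1.09). Counting error alone thus leaves room for a difference of some size in either direction.

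In Top2a-zero cells Uhrf1 was at 69.5 CPM in GR17, 35.8 in GR18 and 39.0 in GR19, and the ratios to GR17 were 0.515 (0.401 to 0.661) and 0.561 (0.442 to 0.713). For Dnmt1 the ratios were 0.642 (0.522 to 0.789) and 0.826 (0.682 to 1.0), and for Ezh2 0.642 (0.494 to 0.836) and 0.798 (0.626 to 1.02). GR18 was clear of the control for all 3 genes, and GR19 for Uhrf1. In cells with 1 to 2 Top2a UMIs the ratios were 0.982 and 0.899 for Uhrf1, 0.722 and 0.856 for Dnmt1 and 0.821 and 0.926 for Ezh2, and Dnmt1 in GR18 alone was clear of the control. In Top2a-zero cells Dnmt3b was at 10.3 CPM in GR17, 3.38 in GR18 and 2.84 in GR19, on 20, 12 and 11 UMIs, with intervals clear of the control in both. Other cell cycle genes in the same cells went both ways. Mcm5, a subunit of the replicative helicase, was at 194 CPM in GR17 and 121 and 122 CPM in GR18 and GR19, Pcna had ratios to GR17 of 0.698 and 0.782, and Top2a in its zero class, counted over all UMIs, was at 31.9, 21.7 and 23.0 CPM. Mki67 was at 113, 123 and 172 CPM, with ratios of 1.09 and 1.52, GR19 being above the control beyond counting error. In Top2a-high cells the ratios of Pcna were 1.21 and 1.30, both clear of the control, and those of Mcm5 were 1.20 and 1.05, GR18 being clear of it. The part of these in the members' difference was not tested. Ezh1 in Top2a-zero cells was at 14.9, 30.2 and 21.2 CPM, GR18 being clear of the control (ratio 2.02, 1.33 to 3.16), and Suz12 at 127, 138 and 158 CPM, GR19 being clear of it. With 1 control library none of these differences between classes was tested over lines.

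**Figure D4:**
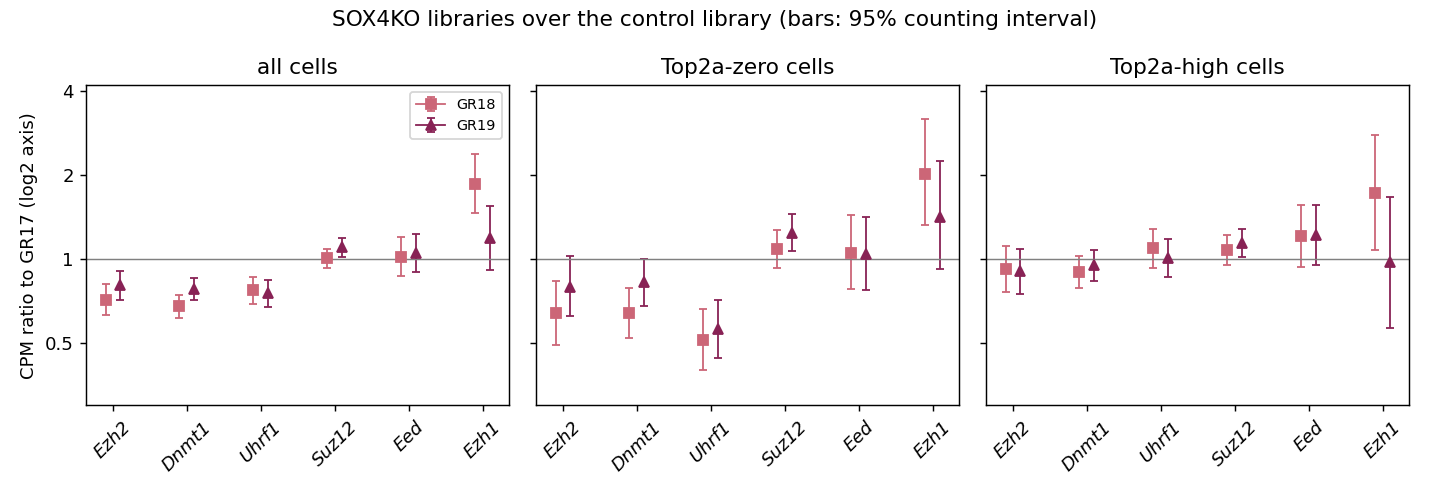
Points give the CPM of GR18 (squares) and GR19 (triangles) over that of GR17 for 6 members, on a log2 axis, with 95% intervals for counting error, in all cells, in Top2a-zero cells and in Top2a-high cells. Uhrf1 sits at 0.515 and 0.561 in Top2a-zero cells and at 1.09 and 1.01 in Top2a-high cells, and the grey line marks equal levels.

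Across single cells thinned to equal depth, Pearson correlations of log(1 + UMIs) were computed inside each library and are given as a description. Mean r with Top2a over the 3 libraries was 0.327 for Dnmt1, 0.263 for Uhrf1, 0.209 for Ezh2 and 0.198 for Suz12, and 3.22% of the 6302 genes with at least 20 CPM had a mean r over 0.2. Eed was at 0.0773 and Ezh1 at -0.128, and the others lay between -0.0730 (Tet1) and -0.0155 (Tet2). The counts of the less abundant members are sparse, and their low values are not read as a result. When cells were thinned to 5000 UMIs the mean r of Dnmt1 with Top2a was 0.234, and those of Uhrf1, Suz12 and Ezh2 were 0.159, 0.0961 and 0.0740.

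Uhrf1 had higher values with genes of DNA replication than with Top2a. Its mean r was 0.467 with Pcna, 0.416 with Mcm5 and 0.416 with Mcm6, and in GR17, GR18 and GR19 it was 0.360, 0.538 and 0.502 with Pcna and 0.178, 0.315 and 0.297 with Top2a. Top2a came at rank 48 of 6302 genes in likeness to Uhrf1, and the first was Rrm2, the small subunit of ribonucleotide reductase (mean r 0.50). Dnmt1 was nearest to Rrm2 (0.390), Pcna (0.384) and Top2a, and Ezh2 to Mcm6 (0.232), Chaf1b (0.226) and Pcna (0.214). These 3 genes were looked at after their values were seen, since each was under 100 CPM in a library. Suz12, the member over 100 CPM in every library, was nearest to Top2a (0.198), Tuba1b (0.195) and Tmpo (0.194). Between members the highest mean r was that of Dnmt1 with Uhrf1 at 0.277, followed by Ezh2 with Uhrf1 at 0.160 and Ezh2 with Dnmt1 at 0.137, while Ezh2 with its partners Suz12 and Eed reached 0.0876 and 0.0740.

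**Figure D5:**
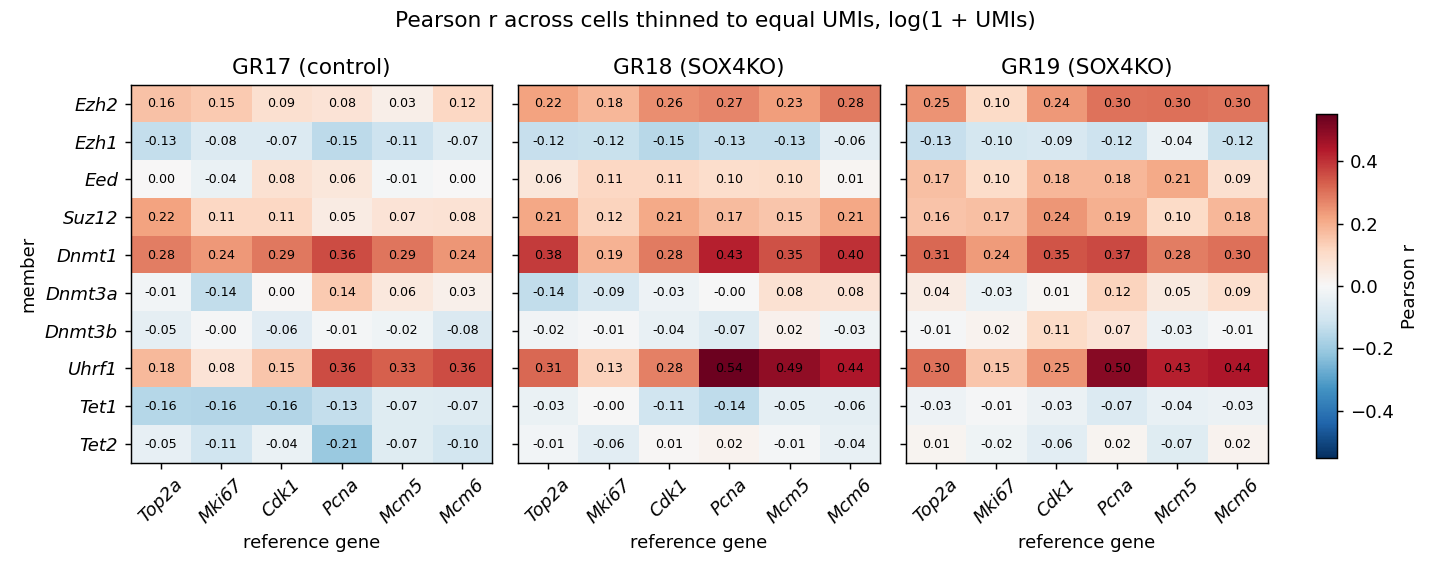
Each panel is 1 single-cell library, with the 10 members as rows and 6 genes of the cell cycle as columns, and the colour and number give Pearson r of log(1 + UMIs) over cells thinned to 10000 UMIs. Dnmt1 and Uhrf1 have the highest values, up to 0.54 for Uhrf1 with Pcna in GR18, and Ezh1 is below 0 with all 6 genes in all 3 libraries.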

How the data were processed

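The deposited bulk files hold raw counts of reads per Ensembl gene, which the authors made with htseq-count; the submitters' processing notes list STAR 2.4.2a, Picard, HTSeq, edgeR, DESeq and Seurat, and the builds NCBIM37 and mm9. The rows for reads without a gene, 45.7 to 53.0% of alignments as not unique and 25.3 to 30.4% as no feature, were left out. The single-cell files hold deposited counts of UMIs per gene and well from a plate-based protocol, and ERCC spike-ins and wells under 1000 UMIs were left out. No doublet caller was run, and 8, 20 and 11 wells held over 2 times the median UMIs. Symbols and exon lengths came from GENCODE vM21 by Ensembl identifier (36345 of 38293 matched). No coordinates were taken from it, since its build is not that of the files. The promoter coordinates printed above are on GRCm38.p6, which is not the build of the files either.

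Bulk counts were tested with edgeR 4.0.16 (filterByExpr, TMM, quasi-likelihood F test, Benjamini-Hochberg over 11682 genes, called under 0.1) in R 4.3.3. UMIs summed by library and Top2a class were tested likewise with library as a block (10296 genes, seed 1 for thinning). The tests were run on simulated data with changes larger than those of the members and the same spread for every gene. That check therefore does not cover differences of the members' size. DESeq2 1.42.0 was an alternative. Bulk p-values set a difference against the spread between these lines, and those between Top2a classes against its variation among the 3 libraries. In both, edgeR estimates that spread with help from all genes tested, so the size of a p-value also depends on the gene filter. Between classes Dnmt1 had an edgeR adjusted p of 2.79e-07, and of 4.04e-33 with the filter of at least 1 count. The log2 differences were 1.20 and 1.21. Intervals cover counting error only.

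The members, lists and alternatives were chosen with earlier results of these data known. Named are all members, Sox4, Top2a and Mki67, the genes of each list called in bulk (up to 4 of lowest adjusted p), and for members with at least 100 CPM in every single-cell library the 3 most correlated genes. Genes called between Top2a classes, and the genes nearest to Dnmt1, Uhrf1 and Ezh2, were named after their values were seen. Promoters are those of RefSeq on GRCm38.p6, and motif words were fixed consensus letters.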

Additional observations from a re-analysis of the deposited data

How the results depend on the processing

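In bulk the count of members called was 1 and became 0 with DESeq2, 0 at an adjusted p under 0.05, and 2 when every gene with at least 1 count was kept (Tet1 and Uhrf1, Uhrf1 at an adjusted p of 0.0761), and leaving out 1 line gave 0 to 1, the 1 being Uhrf1 without M4. Calls over all genes moved with the lines too, from 30 higher and 26 lower without WT3 and 93 and 37 without WT1 to 624 and 382 without M4, beside 479 and 254 with all lines, and to 1008 and 678 with the filter of at least 1 count and to 241 and 113 at an adjusted p under 0.05. With 1 control line left the spread rests on the SOX4KO lines alone. The sign turned for members that were never called: Eed ranged from -0.12 to 0.27 and Dnmt3a from -0.0392 to 0.32 over the lines left out. No paired analysis was possible because the lines are separate organoid lines and their labels share no replicate number.

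Between Top2a classes, Ezh2, Suz12, Dnmt1 and Uhrf1 were called higher in all 11 alternatives, with log2 differences of 0.73 to 1.30 for Dnmt1 and 0.83 to 1.96 for Uhrf1, the lowest with Mki67 and 0.93 and 0.85 at 5000 UMIs. The count of members called lower was 1 and became 2 with thinning to 5000 UMIs, without thinning, with at least 1 Top2a UMI as the high class and without wells over 2 times the median UMIs (each adding Tet1, at -1.02, -0.87, -0.62 and -0.64), and 2 with Mki67 in place of Top2a (adding Dnmt3a), whereas it was 0 with DESeq2 and 0 to 1 with a library left out. DESeq2 called 492 genes higher and 275 lower, against 1348 and 1222 with edgeR. Leaving out GR18 gave 785 and 660, and leaving out GR19 gave 709 and 573. Dnmt3a turned to -0.32 at 5000 UMIs, -0.0899 without thinning, -0.0705 with at least 1 UMI, -0.50 with Mki67 (adjusted p = 0.0402), -0.0344 without high wells, -0.00741 with DESeq2 and -0.0102 with RLE size factors, and ranged from -0.15 to 0.17 over libraries left out. Dnmt3b turned to 0.26 at 5000 UMIs, 0.0627 without thinning and 0.87 with Mki67, and ranged from -0.97 to 0.20, and Tet2 turned to -0.19 without thinning and -0.49 with Mki67. The cause was not tested.

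In single cells 5 members were lower in both SOX4KO libraries at every UMI minimum, scaling and filter on high wells tried, and 5 to 6 with 1 SOX4KO library left out. Among all genes with at least 20 CPM, a level that 6 members reached, 42.5% were lower in both in the main setting. Members with r over 0.1 with Top2a in all 3 libraries numbered 4, also by Spearman correlation, and 1 at 5000 UMIs (Dnmt1). No share over all genes is given for this rule, so these counts describe the members only. Dnmt3b rests on 23 to 60 UMIs and Tet2 on 60 to 118 UMIs in a library, which limits what their values can show.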
